A study of Mus musculus with 516 samples.

Results

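Mylk4, Hopx, Fgf1, Retsat, Dnase1l3, Lhfpl1, Thsd7b, Car8 and Vsnl1 are 9 of the 11251 genes that were counted in single mouse cells from dorsal root ganglia, where the cell bodies of sensory neurons lie beside the spinal cord. They were chosen by measured values of these cells, the ratios of their summed reads in cultured over naive cells, which differed between 2 mouse strains. Those values are given here as a description, and nothing is supported by them. The cells, 516 in all, fell in 4 groups: CAST/Ei cultured, CAST/Ei naive, C57BL/6 cultured and C57BL/6 naive. There were 273 CAST/Ei cells, of which 99 were cultured and the rest naive, and 243 C57BL/6 cells, and over both strains 306 cells were naive. Naive cells were captured soon after the ganglia were taken apart. Cultured cells, labelled as injured, were grown on plastic for 48 h, received the mitotic inhibitor ara-C 24 h after plating, and were then freed with trypsin, a model of axotomy in vitro. All 4 groups shared dissociation, a mesh, a Percoll step against myelin debris and capture on a microfluidic chip. No allele, transgene or drug other than these is named, and the labels give neither age nor sex.

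A sensory neuron that is dissociated loses its axon, and after a few days in culture it has switched on genes of axon growth and lowered many genes of its mature subtype. CAST/Ei is a wild-derived inbred strain known for sensory neurons that extend axons on inhibitory substrates better than those of C57BL/6, the common laboratory strain. The 9 genes do not form a pathway. Mylk4, Car8 and Vsnl1 belong to calcium signalling. Fgf1 is a growth factor and Hopx a nuclear cofactor. Retsat and Dnase1l3 are enzymes of retinol and of DNA, and Lhfpl1 and Thsd7b are membrane proteins.

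The table held 496696577 reads, with a median of 839147 reads per cell and a range of 13932 to 2978345. Cells were clustered together, and 65 CAST/Ei cultured and 34 C57BL/6 cultured cells fell in clusters called neuron-like, as did 272 naive cells of both strains. Other cells numbered 34 in CAST/Ei cultured, 18 in CAST/Ei naive, 77 in C57BL/6 cultured and 16 in C57BL/6 naive. Neuron-like cells were thus 65.7%, 89.7%, 30.6% and 87.9% of the 4 groups in that order. Clusters were called neuron-like because neuron markers were on average above those of every other list in them, so the following values describe the class and do not test its label. The median over neuron-like cells of the mean of 23 neuron markers, on the log2(CPM + 1) scale, was 7.10, 8.11, 7.11 and 8.06 in that order, against 4.59, 5.45, 3.78 and 5.69 in other cells, where CPM scales a gene's reads by all reads of the cell or group. The glial mean of 16 satellite and Schwann markers moved with culture in neuron-like cells, at 4.37 in CAST/Ei cultured against 2.54 in CAST/Ei naive cells, and at 5.71 in C57BL/6 cultured against 2.71 in C57BL/6 naive cells. Its part in the values below was not tested, but each culture response, and each difference between strains, was computed again without the neuron-like cells of highest glial expression. Naive and cultured neuron-like cells shared no cluster apart from 1 CAST/Ei and 1 C57BL/6 cultured cell that lay among naive ones. Which animal, dish or chip a cell came from is not in the labels. Each group is therefore 1 sample, no difference between groups could be tested, and 95% intervals cover counting error only, with amplified copies of a molecule counted as separate reads. In sums over cells, fewer cells of a kind and less RNA per cell cannot be told apart.

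Promoter windows of 250 bases before to 50 bases after the start of transcription were available from RefSeq on build GRCm38.p6 for 5 of the 9 genes, in 7 windows. The pair below is printed because Mylk4 had the second largest difference of culture response of all genes, and because Retsat held the one motif match among the windows.
Mylk4: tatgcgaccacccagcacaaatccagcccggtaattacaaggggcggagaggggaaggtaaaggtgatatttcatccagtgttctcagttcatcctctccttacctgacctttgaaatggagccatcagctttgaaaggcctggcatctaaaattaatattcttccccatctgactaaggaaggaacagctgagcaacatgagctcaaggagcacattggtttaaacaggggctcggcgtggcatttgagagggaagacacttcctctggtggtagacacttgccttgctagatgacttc
Retsat: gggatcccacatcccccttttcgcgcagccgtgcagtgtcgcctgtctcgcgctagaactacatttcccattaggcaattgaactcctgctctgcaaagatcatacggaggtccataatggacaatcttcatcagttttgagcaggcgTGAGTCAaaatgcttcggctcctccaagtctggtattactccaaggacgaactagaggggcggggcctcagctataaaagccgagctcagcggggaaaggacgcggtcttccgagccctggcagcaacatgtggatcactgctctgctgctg
The Mylk4 window is chr13:32783915-32784214 on the minus strand and the Retsat window chr6:72598352-72598651 on the plus strand. Capitals mark a match to TGANTCA, the AP-1 motif, which begins before the RefSeq start that sets the window. The GENCODE gene begins further upstream, at 72598475, so the match lies within the Retsat gene of that annotation. On either strand this motif stood in 7.81% of the 32851 RefSeq mouse windows of the same length. The CRE motif TGACGTCA, found in 1.79% of all windows, and the STAT motif TTCNNNGAA, found in 8.30%, had no match in the 7 windows. A match is a description of letters, not of a bound site.

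Of the 9 genes, the log2 culture response in neuron-like cells, cultured over naive as the ratio of CPM + 1 of summed reads, was at least 1 higher in CAST/Ei than in C57BL/6 for 7 genes and at least 1 lower for Thsd7b. Over all 11251 genes 19.8% were at least 2-fold higher by the same difference and 15.2% at least 2-fold lower. The median difference was 3.42 over the 9 genes and 0.10 over all genes. Lhfpl1, at 10.21, and Mylk4, at 6.76, ranked 1 and 2 of all genes, Car8 12, Vsnl1 20 and Fgf1 208, with Hopx, at 3.42, between the last 2. Thsd7b, at -5.71, ranked 11246, near the other end. Retsat, at 1.32, ranked 1503, and Dnase1l3, at -0.86, ranked 9217 and stayed under 2-fold. For these last 2 genes the label of a strain-specific culture response is therefore weak. For Car8 the strains differed mainly in naive cells, at a log2 ratio of -4.81 for CAST/Ei over C57BL/6, against -0.17 in cultured cells. In sums over neuron-like cells, Retsat and Dnase1l3 differed between the strains by 2-fold or more, in the same direction in both conditions. Hopx and Fgf1 did so too. For Retsat that difference was small or reversed in some naive subtype sets, and for Dnase1l3 it was small in Th cells, as given below.

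**Figure D1:**
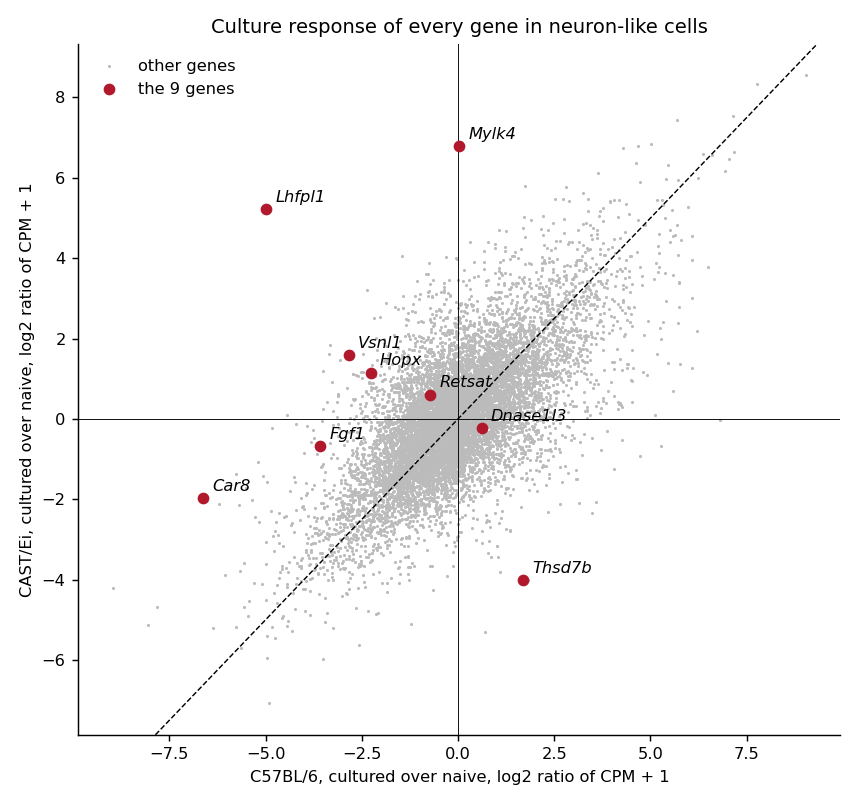
Log2 ratio of CPM + 1, cultured over naive, summed over neuron-like cells, for C57BL/6 (x axis) and CAST/Ei (y axis). Each grey point is 1 of the other genes, red points are the 9 genes, and the dashed line marks equal responses; Lhfpl1, Hopx and Vsnl1 lie above 0 in CAST/Ei and below 0 in C57BL/6, and Thsd7b the other way round.

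In CAST/Ei, 4 of the 9 genes were higher by 2-fold or more in cultured than in naive neuron-like cells (23% of all genes were), and 2 were lower by as much (22.4% of all genes). In C57BL/6, 1 was higher by 2-fold or more (20.8% of all genes) and 5 were lower (24.3% of all genes). The medians of the 9 responses were 0.61 in CAST/Ei and -2.27 in C57BL/6, against 0.02 and -0.15 over all genes. Lhfpl1, Hopx and Vsnl1 were each at least 2-fold higher in CAST/Ei cultured cells and at least 2-fold lower in C57BL/6 cultured cells than in their naive cells, a combination shown by 1.11% of all genes. Thsd7b had the reverse combination, as did 0.773% of all genes. Between strains, 6 of the 9 genes were higher by that much and 2 lower in CAST/Ei than in C57BL/6 cultured neuron-like cells, where 21.3% and 13.5% of all genes were. In naive neuron-like cells 4 were higher and 4 lower by 2-fold or more in CAST/Ei, where 7.23% and 6.2% of all genes were. These comparisons share groups with one another.

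**Figure D2:**
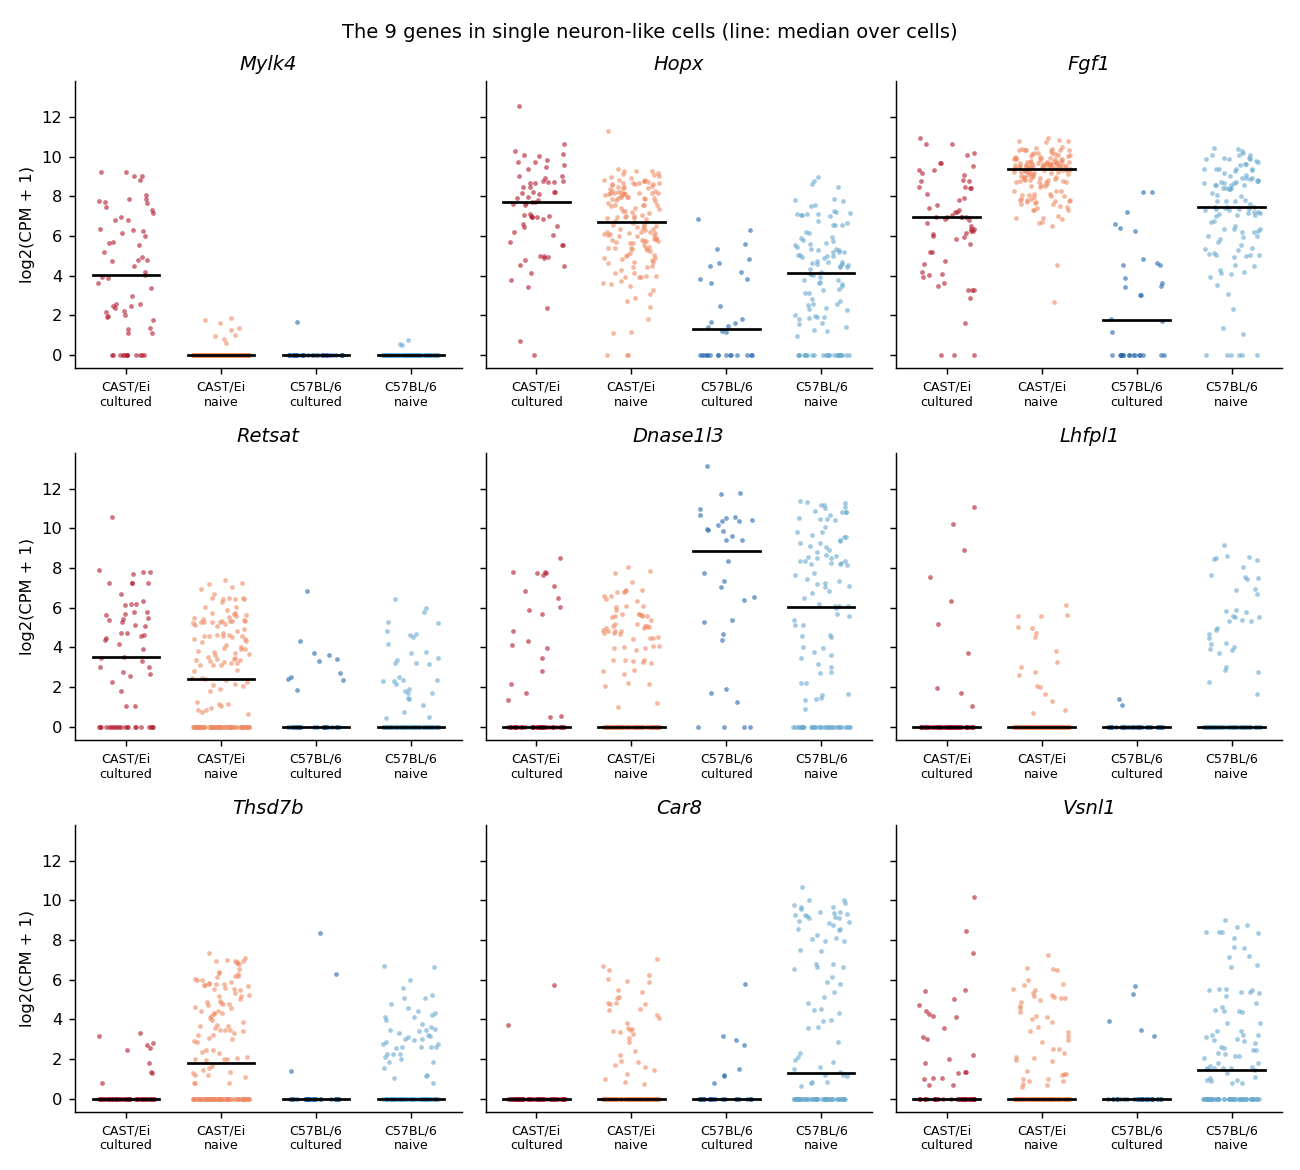
Level of each gene in every neuron-like cell as log2(CPM + 1), in CAST/Ei cultured (65 cells), CAST/Ei naive, C57BL/6 cultured (34 cells) and C57BL/6 naive. Points are cells and black lines the median over cells; Mylk4 is above 2 in CAST/Ei cultured cells alone, while Lhfpl1, Car8, Thsd7b and Vsnl1 sit at 0 in the median cultured cell of both strains.

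Mylk4, a member of the myosin light chain kinase family that is best known from heart and skeletal muscle, was read almost only in CAST/Ei cultured cells. Its gene lies on chromosome 13 at 32700834 to 32783954, minus strand, in the GENCODE vM21 annotation of GRCm38. The level was 117.2 CPM in CAST/Ei cultured neuron-like cells (7917 reads, 95% interval 114.6 to 119.8), against 0.0691 in CAST/Ei naive (11 reads), 0.0554 in C57BL/6 cultured (1 read) and 0.0317 in C57BL/6 naive cells (3 reads). Over single CAST/Ei cultured cells it ran between 0 and 604 CPM with a median of 15.3, while no cell of the other groups passed 2.65 CPM. The ranges met only at the low end.

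With each cell thinned to 300000 reads, so that depth is equal, Mylk4 had at least 5 reads in 28 of 50 CAST/Ei cultured neuron-like cells, or 56% (exact interval 41.25 to 70.01%). It had this level in 0 thinned CAST/Ei naive cells, which allows a share of up to 2.11%, in 0 of 26 C57BL/6 cultured cells (up to 11.5%) and in 0 C57BL/6 naive cells (up to 2.86%), out of 247 thinned naive cells over both strains. Without thinning, a read was seen in 81.5% of CAST/Ei cultured cells, against 5.77% of CAST/Ei naive, 2.94% of C57BL/6 cultured and 2.59% of C57BL/6 naive cells. The reads were spread over many cells, with 16.98% in the richest cell and 39.17% in the richest 3. The ratio of the summed levels was 1696 (947 to 3399) for CAST/Ei cultured over naive, and 2117 (380 to 83636) for CAST/Ei cultured over C57BL/6 cultured cells, where it rested on a single C57BL/6 read.

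Both clusters that held cultured neuron-like cells in number carried Mylk4 in CAST/Ei. In cluster 4, led by Gal, Sprr1a, Inhba and Adcyap1, genes of injured sensory neurons, the CAST/Ei level was 176 CPM and 27 of 31 cells had a read. In cluster 1, led by Postn, Sprr1a and glial or dividing-cell genes such as Gldn and Top2a, it was 26.9 CPM with reads in 25 of 33 cells. The mean glial level was 3.41 in cluster 4 and 5.75 in cluster 1. Mylk4 was also read outside neuron-like cells, at 42.1 CPM in CAST/Ei cultured other cells (40.28 to 44.04, a read in 30 of 34 cells), against 0.131 CPM in CAST/Ei naive, 2.33 in C57BL/6 cultured and 0 reads in C57BL/6 naive other cells, which allows up to 0.179 CPM. Of the C57BL/6 cultured reads 94.6% came from 1 cell. In CAST/Ei cultured cells the level was 35.7 CPM in the fibroblast-like cluster 7 (9 of 10 cells) and 44.5 CPM in the unnamed cluster 11 (21 of 24 cells), which Cdh19, Postn and Nes led and whose mean glial level was 6.84. The part of glial expression in the Mylk4 level was not tested. Mylk4 was thus at 26.9 CPM or more in each of the 4 clusters that held CAST/Ei cultured cells in number.

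Vsnl1 encodes visinin-like protein 1, a neuronal calcium sensor that binds membranes when calcium rises, on chromosome 12 at 11325242 to 11436613, minus strand. Its level was 26.8 CPM in CAST/Ei cultured (25.6 to 28.1), 8.22 in CAST/Ei naive, 3.65 in C57BL/6 cultured (2.83 to 4.65) and 32.1 in C57BL/6 naive neuron-like cells, giving responses of 1.59 in CAST/Ei and -2.83 in C57BL/6. The CAST/Ei value rested on few cells, and most C57BL/6 naive reads came from 1 cluster of 10 cells, as given below. The richest cell held 42.5% of the CAST/Ei cultured reads and the richest 3 held 82.3%, and without the richest 3 of each group the CAST/Ei response was -0.06 while that in C57BL/6 was -3.72. The thinned share was 16% in CAST/Ei cultured (8 of 50 cells), 14.1% in CAST/Ei naive, 7.69% in C57BL/6 cultured and 21.9% in C57BL/6 naive cells. In other cells the level was 22.2 CPM in CAST/Ei cultured, where 1 cell held 84.9% of reads, 16.2 in CAST/Ei naive, 1.09 in C57BL/6 cultured and 98.3 in C57BL/6 naive cells, where 1 cell held 56.01%.

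Car8 encodes a carbonic anhydrase-related protein without enzyme activity, which binds the IP3 receptor of type 1 and lowers its affinity for IP3, on chromosome 4 at 8143362 to 8239041, minus strand. It was low in 3 of the groups. The level was 0.770 CPM in CAST/Ei cultured (52 reads), 5.98 in CAST/Ei naive, 0.996 in C57BL/6 cultured (18 reads) and 195 in C57BL/6 naive neuron-like cells (192 to 198), with responses of -1.98 in CAST/Ei and -6.62 in C57BL/6. CAST/Ei over C57BL/6 was thus -4.81 on the log2 scale in naive cells, a level 32.6-fold lower in CAST/Ei (30.6 to 34.8), and -0.17 in cultured cells, where the interval of the ratio, 0.445 to 1.40, spans 1. One cell held 84.6% of the CAST/Ei cultured reads, and without the richest cell of each group the cultured levels were 0.120 CPM in CAST/Ei and 0.693 in C57BL/6. Thinned, Car8 was detected in 2% of CAST/Ei cultured (1 of 50), 13.4% of CAST/Ei naive, 0 of 26 C57BL/6 cultured (up to 11.5%) and 41.9% of C57BL/6 naive cells. Among C57BL/6 naive cells it ran between 0 and 1626 CPM with a median of 1.43, so its level varied widely between cells.

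Fgf1, acidic fibroblast growth factor, is made by sensory neurons, lacks a secretion signal and binds all the FGF receptors. The gene is on chromosome 18, and exons of Arhgap26 and of a lincRNA on the other strand overlap its exons. No source used here says whether counting used the strand, so reads of such partners cannot be told apart. The level was 403 CPM in CAST/Ei cultured (398 to 407), 646 in CAST/Ei naive (642 to 650), 25.5 in C57BL/6 cultured (23.2 to 27.9) and 315 in C57BL/6 naive neuron-like cells (311 to 318). Single cells ran between 0 and 1988 CPM (median 121.4) in CAST/Ei cultured, between 5.49 and 1967 (median 668) in CAST/Ei naive, between 0 and 296 (median 2.41) in C57BL/6 cultured, and between 0 and 1380 (median 175) in C57BL/6 naive cells. All groups overlapped, and the C57BL/6 cultured cells lay at the low end.

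Fgf1 was lower in cultured cells of both strains, with log2 responses of -0.68 in CAST/Ei and -3.58 in C57BL/6. The ratio of CAST/Ei over C57BL/6 was 15.8 (14.4 to 17.4) in cultured and 2.05 (2.03 to 2.08) in naive cells. The thinned share was 84% in CAST/Ei cultured, 98.6% in CAST/Ei naive, 26.9% in C57BL/6 cultured and 89.5% in C57BL/6 naive cells. One C57BL/6 cultured cell held 48.5% of that group's reads, and the CPM without it was 13.7. The richest 3 CAST/Ei cultured cells held 40.8% of the reads. Without the richest 3 of each group, CAST/Ei had 263.6 CPM cultured against 605.3 naive, and C57BL/6 had 8.29 against 287.3. Within CAST/Ei cultured cells Fgf1 was at 542.1 CPM in cluster 4 and 161.3 CPM in cluster 1. The size of the CAST/Ei fall thus depended on which cells were summed. In other cells the responses were near each other, at -2.51 in CAST/Ei and -2.55 in C57BL/6, with 51.8 CPM in CAST/Ei cultured against 301 in CAST/Ei naive cells and 19.2 in C57BL/6 cultured against 117.4 in C57BL/6 naive cells. The difference of 2.90 in neuron-like cells was therefore 0.04 in other cells, and -0.28 there without the richest cell of each group, though naive and cultured other cells came from different clusters.

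Hopx encodes a small homeodomain protein that does not bind DNA and acts as a cofactor, known from heart and stem cells as a partner of serum response factor. It lies on chromosome 5 at 77086988 to 77115121, minus strand, with the antisense gene Hopxos overlapping an exon. The level was 357 CPM in CAST/Ei cultured (352 to 361), 159.98 in CAST/Ei naive (158.02 to 161.95), 8.25 in C57BL/6 cultured (6.98 to 9.68) and 43.6 in C57BL/6 naive neuron-like cells (42.3 to 44.9). Per cell, the median was 208 CPM in CAST/Ei cultured, 103.1 in CAST/Ei naive, 1.49 in C57BL/6 cultured and 16.5 in C57BL/6 naive cells, and the highest cell had 5934, 2504, 115.9 and 499.8 CPM in the same order. The median CAST/Ei cultured cell was above the highest C57BL/6 cultured cell.

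Hopx was detected after thinning in 92% of CAST/Ei cultured (46 of 50), 88.03% of CAST/Ei naive, 7.69% of C57BL/6 cultured (2 of 26, exact interval 0.946 to 25.1%) and 46.7% of C57BL/6 naive cells. The ratio of CAST/Ei over C57BL/6 was 43.3 (36.8 to 51.2) in cultured and 3.67 (3.55 to 3.79) in naive cells. Within CAST/Ei cultured cells Hopx was at 506 CPM in cluster 4 and 127.7 CPM in cluster 1, and with cluster 1 alone the CAST/Ei response was -0.32 in place of 1.15. The higher level of CAST/Ei cultured over naive cells was thus that of the cluster led by Gal. The response in C57BL/6 lay between -2.92 and -1.55 in the alternatives tried. In other cells Hopx was at 78.2 CPM in CAST/Ei cultured, 114.5 in CAST/Ei naive, 4.61 in C57BL/6 cultured and 32.1 in C57BL/6 naive cells, so its culture response there was negative in both strains, at -0.54 in CAST/Ei and -2.56 in C57BL/6.

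Retsat, the retinol saturase of the endoplasmic reticulum, reduces a double bond of all-trans-retinol. It lies on chromosome 6 at 72598475 to 72608425, plus strand, with the predicted gene Gm45053 on the other strand overlapping an exon. The level was 35.4 CPM in CAST/Ei cultured (34.02 to 36.88), 22.9 in CAST/Ei naive (22.2 to 23.7), 2.16 in C57BL/6 cultured (1.54 to 2.95) and 4.19 in C57BL/6 naive neuron-like cells (3.78 to 4.62). The CAST/Ei level was higher by 16.4-fold (11.97 to 23.13) in cultured and by 5.47-fold (4.93 to 6.09) in naive cells. Thinned shares were 40% in CAST/Ei cultured, 35.9% in CAST/Ei naive, 0 of 26 in C57BL/6 cultured (up to 11.5%) and 9.52% in C57BL/6 naive cells.

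Other cells showed the same strain order for Retsat at a higher level, with 171.6 CPM in CAST/Ei cultured, 155.2 in CAST/Ei naive, 17.9 in C57BL/6 cultured and 18.9 in C57BL/6 naive cells, and with culture responses of 0.14 in CAST/Ei and -0.07 in C57BL/6. One C57BL/6 naive other cell held 52.1% of that group's reads, and without the richest cell of each group the responses were 0.26 in CAST/Ei and 0.53 in C57BL/6. Within CAST/Ei cultured neuron-like cells it was at 14.2 CPM in cluster 4 (11 of 31 cells with a read, 53.7% of the reads in 1 cell) and 70.6 CPM in cluster 1 (33 of 33), and cluster 1 had the higher glial mean, as given above. The difference of responses was -0.26 when neuron-like cells came from Ward clusters, which held 58 CAST/Ei cultured and 33 C57BL/6 cultured cells.

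Dnase1l3 is a secreted endonuclease that cuts DNA in chromatin and is best known from macrophages and dendritic cells. The gene is on chromosome 14 at 7964533 to 7994573, minus strand. The level was 16.8 CPM in CAST/Ei cultured (15.8 to 17.8), 19.9 in CAST/Ei naive (19.2 to 20.6), 659 in C57BL/6 cultured (647 to 671) and 428 in C57BL/6 naive neuron-like cells (424 to 432). C57BL/6 was higher by 39.3-fold (36.9 to 41.8) in cultured and by 21.5-fold (20.7 to 22.3) in naive cells. Culture responses were small next to this, at -0.24 in CAST/Ei and 0.62 in C57BL/6. Without the cells of highest glial expression they were -2.19 in CAST/Ei and 0.41 in C57BL/6, a difference of -2.60. That setting kept only 35 CAST/Ei cultured and 12 C57BL/6 cultured cells. Over all cells the difference was 0.72. The highest CAST/Ei cells had 362 CPM when cultured and 263 when naive. Single C57BL/6 cultured cells ran between 0 and 9096 CPM with a median of 500, and C57BL/6 naive cells between 0 and 2670 with a median of 65.2.

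Detection of Dnase1l3 after thinning was 14% in CAST/Ei cultured, 28.9% in CAST/Ei naive, 69.2% in C57BL/6 cultured (18 of 26, exact interval 48.2 to 85.7%) and 62.9% in C57BL/6 naive cells. Of the macrophage list 2 of 11 genes are in the table. Those 2 summed to 30.9, 12.3, 9.41 and 3.65 CPM in CAST/Ei cultured, CAST/Ei naive, C57BL/6 cultured and C57BL/6 naive neuron-like cells, and the part of macrophage RNA in the Dnase1l3 level was not tested. In other cells Dnase1l3 was at 1.13 CPM in CAST/Ei cultured, 9.65 in CAST/Ei naive, 4.58 in C57BL/6 cultured and 17.7 in C57BL/6 naive cells, far below the neuron-like cells of C57BL/6. In C57BL/6 cultured cells it was at 938 CPM in cluster 1 (21 of 23 cells with a read) and 258 CPM in cluster 4 (8 of 10). One cell held 1513 of the 1760 reads of cluster 4, whose median cell had 51.6 CPM.

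Lhfpl1 encodes a membrane protein with 4 predicted spans of the family of Lhfpl5, a component of the mechanotransduction channel of hair cells, on chromosome X at 145290359 to 145349089, minus strand. The level was 113.2 CPM in CAST/Ei cultured (110.7 to 115.8), 2.04 in CAST/Ei naive (1.83 to 2.28), 0.111 in C57BL/6 cultured (2 reads) and 34.02 in C57BL/6 naive neuron-like cells (32.9 to 35.2). Responses were 5.23 in CAST/Ei and -4.98 in C57BL/6. Most of the C57BL/6 naive reads came from 1 cluster of 10 cells, as given below. The ratio of C57BL/6 cultured to naive was 0.00325 (0.000394 to 0.0118), and CAST/Ei cultured cells had 1023 times the level of C57BL/6 cultured cells (283 to 8445). Thinned detection was 12% in CAST/Ei cultured (6 of 50, exact interval 4.53 to 24.3%), 4.23% in CAST/Ei naive (6 cells, 1.57 to 8.97%), 0 of 26 in C57BL/6 cultured (up to 11.5%) and 23.8% in C57BL/6 naive cells (25 cells). The share of cells therefore differed far less between CAST/Ei cultured and naive cells than the sum of reads did.

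The CAST/Ei cultured Lhfpl1 reads lay in very few cells. The richest 3, all of cluster 4, held 93.9% of them, with 2177, 1212 and 479 CPM, and without them the level was 7.58 CPM. Without the richest 3 of each group the CAST/Ei response was 2.18. These 3 cells had at most 6.58 CPM of Nefh, the heavy neurofilament, and glial means of 2.45 to 3.79. All 3 also held Mylk4, at 124.2, 447.6 and 70.5 CPM, and Fgf1, at 1143, 648 and 167.99 CPM. Both genes were common there, since 27 of the 31 CAST/Ei cultured cells of cluster 4 had a Mylk4 read and 30 an Fgf1 read. In other cells Lhfpl1 had 6 reads in CAST/Ei cultured, 0 in CAST/Ei naive (up to 0.197 CPM), 18 in C57BL/6 cultured and 0 in C57BL/6 naive cells (up to 0.179 CPM), so it was read in neuron-like cells nearly alone.

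Thsd7b, a transmembrane protein with thrombospondin type 1 repeats, lies on chromosome 1 at 129273302 to 130219278, plus strand. The level was 0.429 CPM in CAST/Ei cultured (29 reads, 0.288 to 0.617), 22.2 in CAST/Ei naive (21.4 to 22.9), 18.05 in C57BL/6 cultured (16.1 to 20.1) and 4.89 in C57BL/6 naive neuron-like cells (4.46 to 5.36). In CAST/Ei the response was -4.02. The median CAST/Ei naive cell had 2.49 CPM and the highest 158.7, while the highest CAST/Ei cultured cell had 8.86. Thinned detection was 0 of 50 in CAST/Ei cultured (up to 6%), 34.5% in CAST/Ei naive (49 cells), 7.69% in C57BL/6 cultured (2 of 26) and 11.4% in C57BL/6 naive cells (12 cells).

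The C57BL/6 response of Thsd7b, 1.69, rested on 3 cells, which held all of the 326 C57BL/6 cultured reads. One of them, with 325 CPM, held 82.2%. Leaving out the richest cell by CPM in each group gave a C57BL/6 response of -0.28, and leaving out the 3 cells of most reads gave -2.09. The difference between strains was -1.96 without the 3 cells of most reads in each group and -5.71 with them, and it was -1.84 without the cells of highest glial expression. In other cells Thsd7b had 0 reads in CAST/Ei cultured (up to 0.0649 CPM), 6.43 CPM in CAST/Ei naive, 0.0758 in C57BL/6 cultured and 0.954 in C57BL/6 naive cells.

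**Figure D3:**
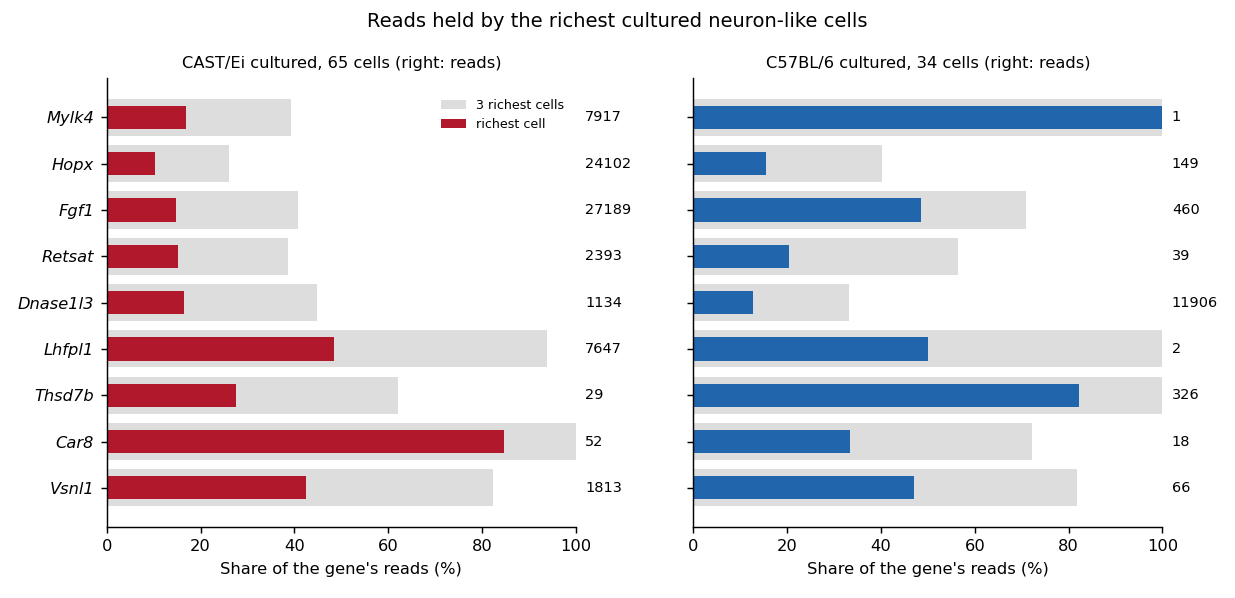
Share of each gene's reads, in %, held by the richest cell (coloured) and the richest 3 cells (grey) among 65 CAST/Ei cultured (left) and 34 C57BL/6 cultured (right) neuron-like cells, with the number of reads at the right. Lhfpl1 in CAST/Ei (93.9% in 3 cells) and Thsd7b in C57BL/6 (82.2% in 1 cell) stand on few cells, while Mylk4 and Hopx in CAST/Ei and Dnase1l3 in C57BL/6 are spread over many.

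In cells that were not neuron-like, 4 of the 9 genes had a culture response at least 2-fold higher in CAST/Ei than in C57BL/6 and 1 at least 2-fold lower, where 25.4% and 26.3% of all genes had. Those 4 were Vsnl1 (6.00), Car8 (3.72), Mylk4 (3.52) and Hopx (2.01), and Thsd7b was at -2.03. Single cells carried much of this, since the richest of the 16 C57BL/6 naive other cells held 81.2% of the reads for Car8, 57.8% for Hopx and 56.01% for Vsnl1. Without the richest cell of each group the differences were 3.71 for Vsnl1, 1.90 for Car8, 4.98 for Mylk4, 1.17 for Hopx and -2.07 for Thsd7b. None of the 9 was at least 2-fold higher in cultured cells of one strain and lower in those of the other, while 3.06% of all genes were higher in CAST/Ei and lower in C57BL/6 and 3.2% the other way. The median difference over the 9 was 0.22, against 0.0028 over all genes. Naive other cells all came from cluster 5, named glia-like with interferon and endothelial genes beside glial ones among its leading genes or markers, and cultured other cells from clusters 7, 9, 11 and 13. Cluster 5 had a mean of 5.74 for glial, 5.57 for neuron and 4.08 for endothelial markers, so its name rested on a small margin. The median glial mean of its CAST/Ei cells was 6.70, above their neuron mean of 5.45. In its C57BL/6 cells the glial mean was 4.08, below the neuron mean of 5.69, so the name does not hold for them. The culture responses of other cells therefore set unlike kinds of cells side by side. Strain differences in other cells do so too. CAST/Ei cultured other cells lay in clusters 7 (10 cells) and 11 (24 cells). Those of C57BL/6 lay in clusters 7 (22 cells), 9 (31 cells), 11 (3 cells) and 13 (21 cells).

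**Figure D4:**
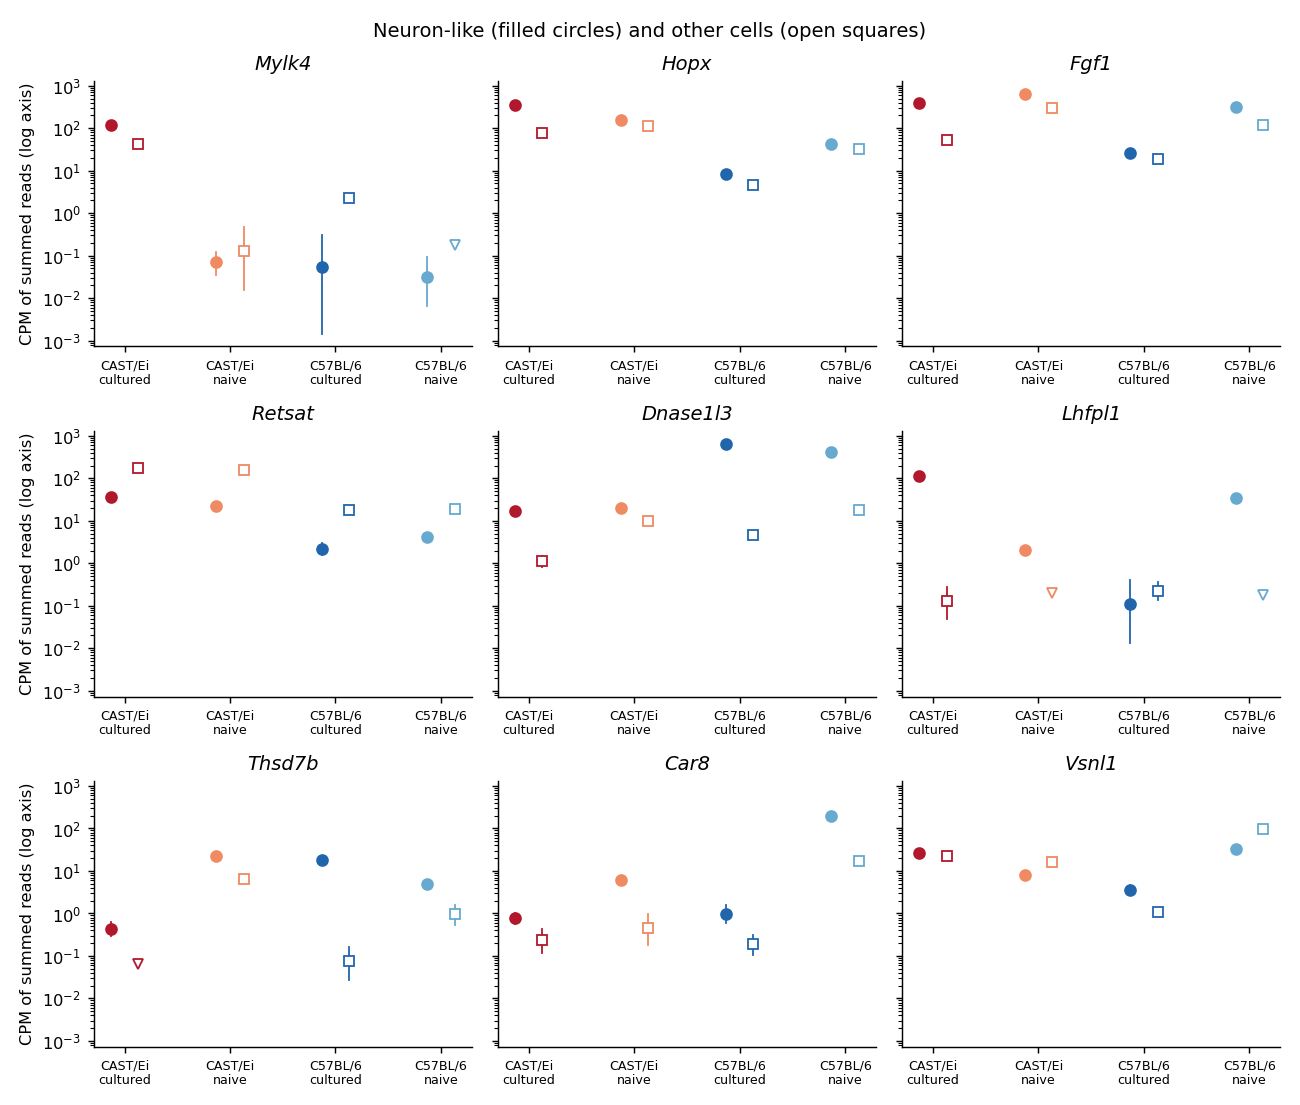
CPM of summed reads, on a log axis, in neuron-like cells (filled circles) and other cells (open squares) of the 4 groups; lines are exact 95% Poisson intervals and open triangles mark the limit that 0 reads allows. Retsat is higher in other cells of every group, Dnase1l3 and Lhfpl1 are higher in neuron-like than in other cells of C57BL/6 naive, and Mylk4 is high in both classes of CAST/Ei cultured cells.

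Naive cells still carry their subtype genes, so the strains were also set side by side within cells that had at least 100 CPM of a subtype marker. In cells with Mrgpra3, an itch receptor (55 CAST/Ei and 22 C57BL/6 cells), Dnase1l3 was at 16.9 CPM in CAST/Ei against 1495 in C57BL/6, Car8 at 17.2 against 522 and Hopx at 255 against 10.8. Cells with Mrgprd, a receptor of nonpeptidergic nociceptors (45 and 29 cells), had Fgf1 at 848 CPM in CAST/Ei against 72.02 in C57BL/6, Hopx at 75.2 against 3.73 and Dnase1l3 at 9.66 against 277. The strain difference of naive cells thus kept its direction within these 2 sets for these 4 genes, but its size varied. In Mrgpra3 cells Fgf1 was at 1026 CPM in CAST/Ei against 620 in C57BL/6. Cells with Th, tyrosine hydroxylase of low-threshold C-fibres (39 and 31 cells), had Hopx at 67.2 CPM in CAST/Ei against 56.6 in C57BL/6 and Dnase1l3 at 6.17 against 11.1, closer than in the other 2 sets. In these Th cells Car8 was at 0.709 CPM in CAST/Ei against 10.8 in C57BL/6, and Fgf1 at 364 against 175.3.

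Cells with Sst, somatostatin (12 CAST/Ei and 6 C57BL/6 cells), had Car8 at 0.511 CPM in CAST/Ei against 495 in C57BL/6. Cells with Tac1, the substance P precursor (65 and 73 cells), had it at 2.16 against 166.1. Cells with Nefh (32 and 35 cells) had Lhfpl1 at 2.10 CPM in CAST/Ei against 87.9 in C57BL/6, and Vsnl1 at 17.8 against 89.4. Vsnl1 was closer in Th cells, at 5.19 against 7.71, and in Mrgpra3 cells, at 10.3 against 14.2. In Sst cells both genes went the other way, with Lhfpl1 at 2.66 CPM against 0 reads and Vsnl1 at 1.23 against 0.576 CPM. Thsd7b was higher in CAST/Ei naive cells of 5 of the 6 sets, at 36.9 CPM in CAST/Ei against 5.06 in C57BL/6 Mrgpra3 cells and at 41.2 against 3.49 in Nefh cells, while in Sst cells it was at 0.102 CPM in CAST/Ei against 1.87 in C57BL/6. Retsat was higher in CAST/Ei naive cells in all sets but Sst, at 28.9 CPM in CAST/Ei against 4.29 in C57BL/6 Tac1 cells. In Mrgpra3 cells it was close, at 8.85 against 6.11, and in Sst cells it was at 0.204 (2 reads) against 6.34. The sets overlap, and many cells lay between 50 and 200 CPM of a marker, 62 CAST/Ei and 41 C57BL/6 cells for Nefh and 8 and 5 for Mrgpra3.

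**Figure D5:**
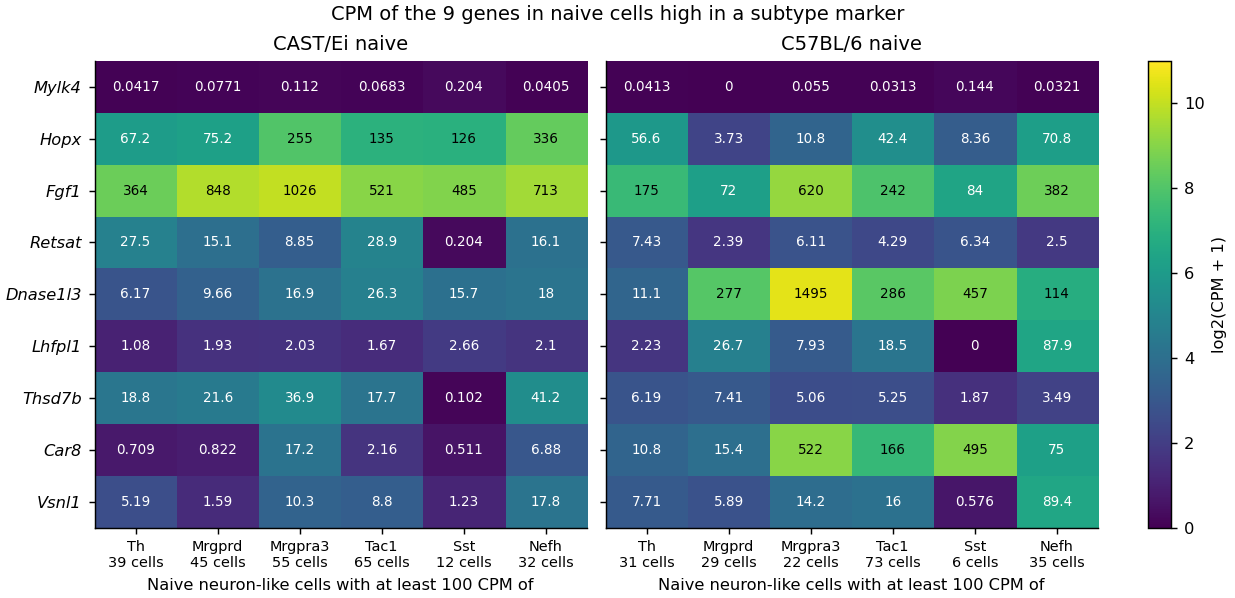
CPM of each of the 9 genes (numbers, with colour as log2(CPM + 1)) summed over naive neuron-like cells with at least 100 CPM of the subtype marker named below, in CAST/Ei (left) and C57BL/6 (right). Dnase1l3 and Car8 are highest in C57BL/6 Mrgpra3 cells, at 1495 and 522 CPM, and Fgf1 is higher in CAST/Ei than in C57BL/6 for every marker.

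In C57BL/6 naive cells, Lhfpl1 and Vsnl1 were shared by 1 small cluster of 10 cells, where Lhfpl1 was at 298 CPM, Vsnl1 at 334 and Fgf1 at 1002, each with reads in 10 of 10 cells. No CAST/Ei cell lay in that cluster. It held 1956 of the 3218 Lhfpl1 reads and 2194 of the 3041 Vsnl1 reads of C57BL/6 naive neuron-like cells. Lhfpl1 is among the 10 leading genes of that cluster, and Dnase1l3 and Car8 among those of the C57BL/6 Mrgpra3 cluster of 20 cells, so their height there is part of how the clusters formed. Over C57BL/6 naive neuron-like cells, Pearson's r of log2(CPM + 1) was 0.64 between Lhfpl1 and Vsnl1, 0.56 between Dnase1l3 and Car8 and -0.59 between Hopx and Dnase1l3. Cells of 1 group share their library preparation and differ in depth, so these values describe cells only. Among all genes, those most like one of the 9 in naive neurons of both strains were sought by the lower of its r in CAST/Ei and in C57BL/6, over 272 cells in all. For Car8 these were Mrgpra4 (0.62 in CAST/Ei and 0.54 in C57BL/6), the galanin receptor Galr1 (0.55 and 0.52) and Mrgpra3 (0.58 and 0.51). Dnase1l3 had Cd9, a tetraspanin (0.40 and 0.61), and Hopx had Arap2 (0.41 and 0.40). No gene reached 0.4 in both strains for the other 6.

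Genes related to the 9 by family or pathway were taken from lists of family and pathway members. Counts by the difference of culture responses stand against the 19.8% of all genes that were higher and the 15.2% that were lower by 2-fold or more, and no list was tested. Of 13 FGF ligands, receptors and adaptors in the table, 5 had a culture response at least 2-fold higher in CAST/Ei and 0 lower, with a median of 0.84 against 0.10 over all genes. Spry1 and Spry4, feedback inhibitors that FGF signalling induces, had differences of 3.31 and 2.76. Spry4 was at 19.7 CPM in CAST/Ei cultured, 11.6 in CAST/Ei naive, 25.3 in C57BL/6 cultured and 107.6 in C57BL/6 naive cells. Fgf7 (1.72) and Fgf12 (1.44) were the others of largest difference, and Fgf12, an intracellular FGF homologue that binds sodium channels, was at 61.6, 189, 208 and 1720 CPM in the same order.

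Of 14 calcium sensors and buffers, 4 were at least 2-fold higher by the difference and 0 lower, with a median of 0.69. S100b, a calcium-binding protein that is also a glial marker, differed by 4.41, Hpca (hippocalcin) by 2.84, Kcnip3 (the channel-interacting protein DREAM) by 2.81 and Ncs1 by 1.31. In C57BL/6, 10 of the 14 were at least 2-fold lower in cultured cells and 0 higher, against 24.3% and 20.8% of all genes. In CAST/Ei 7 were lower and 2 higher, against 22.4% and 23% of all genes. Among 9 carbonic anhydrases and IP3 receptor genes, 4 were higher and 2 lower by the difference (median 0.48). Itpr1, the IP3 receptor that Car8 protein binds, was at 37.2 CPM in CAST/Ei cultured, 6.17 in CAST/Ei naive, 2.82 in C57BL/6 cultured and 6.81 in C57BL/6 naive cells, a difference of 3.44. Car2 (2.76), Itpkb (2.74) and Car11 (-2.07) followed.

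Of 12 retinoid genes, 4 were higher and 3 lower by the difference (median -0.18). Rxra, a retinoid X receptor, differed by 3.12, and the retinoid carriers Crabp2 and Crabp1 by 3.08 and -2.78. Crabp2 was at 52.9 CPM in CAST/Ei cultured against 0.729 in CAST/Ei naive, and at 18.5 in C57BL/6 cultured against 4.28 in C57BL/6 naive cells, so both strains had more of it in culture. Of 15 myosin light chain kinases and phosphatase genes, 3 were higher and 2 lower (median 0.04), with Myl9 at -3.48, Ppp1r12c at 1.72, Mylk at -1.53 and Ppp1r14b at 1.38. Mylk, the smooth muscle and nonmuscle kinase of the family, was at 24.3 CPM in CAST/Ei cultured, 39.5 in CAST/Ei naive, 12.7 in C57BL/6 cultured and 6.59 in C57BL/6 naive cells and did not show the Mylk4 pattern.

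Of 12 Lhfpl and thrombospondin-repeat genes, 3 were higher and 3 lower (median -0.01), with Lhfpl5 at 3.35, Sema5a at -3.03, Lhfp at -2.63 and Thbs1 at 2.61. Lhfpl5 was at 5.52 CPM in CAST/Ei cultured, 25.3 in CAST/Ei naive, 0.388 in C57BL/6 cultured and 56.2 in C57BL/6 naive cells, lower in culture in both strains. Of 10 deoxyribonucleases listed 3 are in the table, and Trex1, Dffa and Dnase1l1 differed by 1.74, 1.46 and -0.18. None of these 3 had the strain difference of Dnase1l3, since CAST/Ei over C57BL/6 in naive cells was -0.70, 0.11 and 0.24 on the log2 scale. Among the related genes named, 1 cell held over 50% of the CAST/Ei cultured reads of Rxra (70.03%), Spry1 (69.5%), Hpca (62.5%), Trex1 (62.2%), Spry4 (61.5%), Sema5a (56.2%) and Itpr1 (55.7%), and of the C57BL/6 cultured reads of Hpca, Itpkb, Car11, Lhfpl5, Spry1 and Sema5a. The same held for CAST/Ei naive reads of Crabp1 (100%), Mylk (54.4%), Fgf7 (52.8%) and Crabp2 (50.9%). It also held for C57BL/6 naive reads of Spry1 (79.9%) and Crabp2 (58.3%).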

How the data were processed

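Single cells of dorsal root ganglia were measured by RNA sequencing of polyA RNA after amplification on a microfluidic chip. Raw counts of reads per gene and cell were deposited by the authors as 1 table. Per the submitters' processing notes, the tools Bowtie2 and SAMtools and the build mm10, which is of C57BL/6J, are named without their roles. How reads were counted, and with which annotation, is not given in the sources used here, and whether CAST/Ei variants lowered counts was not tested. Sequencing runs mixed all conditions, per the labels' protocols. Every gene has a read in at least 60 cells.

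No cell was filtered, no doublet caller was run and no columns were unused or identical. With scanpy 1.11.5 on log2(CPM + 1), 2000 variable genes, 20 principal components, 15 neighbours and Leiden resolution 1 gave 16 clusters. A cluster took the class of the highest marker mean, and lost it where its leading 10 genes held more markers of another class. Reads were summed per group and class. Ratios used CPM + 1, a 2-fold limit, exact Poisson, binomial and Clopper-Pearson intervals, and limits of 3 reads for 0 reads. Shares used cells thinned to 300000 reads (50 CAST/Ei cultured, 26 C57BL/6 cultured and 247 naive neuron-like cells) and at least 5 reads. All 9 genes, up to 4 genes of each related list with at least 5 CPM in a group, and up to 3 genes of r at least 0.4 were named, except 1 gene that is not reported here. The 9 genes and the lists were chosen with earlier results of these data known. Coordinates came from GENCODE vM21. The scripts were tested on simulated data.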

Additional observations from a re-analysis of the deposited data

Results flagged for a closer look

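Lhfpl1, Vsnl1, Hopx and Thsd7b had culture responses of opposite sign in the 2 strains, and the difference between the strains was not tested, since each group is 1 sample. In neuron-like cells the log2 response of CAST/Ei minus that of C57BL/6 was 10.21 for Lhfpl1, 4.43 for Vsnl1, 3.42 for Hopx and -5.71 for Thsd7b. For Hopx the reads were spread over cells, with 10.3% in the richest CAST/Ei cultured cell and 15.4% in the richest C57BL/6 cultured cell. For the other 3 genes 3 or fewer cells held over 80% of the reads of a cultured group: 93.9% for Lhfpl1 and 82.3% for Vsnl1 in CAST/Ei, and 100% for Thsd7b in C57BL/6.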

How the results depend on the processing

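No paired analysis was possible because each group is 1 sample and the numbers in the titles only count cells. The difference of culture responses was recomputed under 12 alternatives. Mylk4 ranged over 3.66 to 7.42, Hopx 2.19 to 3.68, Fgf1 2.01 to 4.21, Lhfpl1 5.48 to 10.87, Car8 3.65 to 5.39, Vsnl1 2.51 to 5.51 and Thsd7b -7.58 to -1.04, each with its sign kept in 12 of 12. Retsat kept its sign in 11 of 12 (-0.26 with Ward clusters) and Dnase1l3 in 11 of 12 (0.72 over all cells). The number of genes at least 2-fold higher was 6 or 7 throughout, and the number lower was 2 in place of 1 with median-of-ratios size factors, without the cells of highest glial expression, with the cluster led by Gal alone and without the 3 cells of most reads, where Dnase1l3 joined Thsd7b. The Thsd7b response in C57BL/6, 1.69, was -0.28 without the cell of highest CPM, -0.26 over all cells, -2.76 without the cells of highest glial expression, -2.43 with the cluster led by Postn alone and -2.09 without the 3 cells of most reads. With the cluster led by Postn alone, the CAST/Ei response was -0.32 for Hopx and -1.28 for Vsnl1, and without the 3 cells of most reads that of Vsnl1 was -0.056. The causes were not tested. In other cells, without the richest cell of each group, Retsat had a difference of -0.27 in place of 0.22, and Vsnl1 a CAST/Ei response of -1.14 in place of 0.43. The alternatives by single cluster, without 3 cells and in other cells were added after seeing the data. Shares of cells moved beyond their interval in 36 of 72 values with at least 1 thinned read and in 45 of 72 without thinning. Detection in 0 of 26 thinned C57BL/6 cultured cells allows a share of up to 11.5%.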
